A study of Homo sapiens with 4 samples.

Results

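The integrated stress response is the program by which cells slow protein synthesis and switch on stress genes. Kinases that sense stress, among them PERK, GCN2, PKR and HRI, phosphorylate the initiation factor eIF2, which blocks its exchange factor eIF2B and lowers translation in general. Messages with short upstream open reading frames, such as that of the transcription factor ATF4, are then translated better, and ATF4 pairs with other basic leucine zipper proteins to raise genes of amino acid supply and stress repair. The results below concern 10 genes that carry or regulate this response: ATF4, ATF3, ATF5, DDIT3, CEBPB, CEBPG, TRIB3, NUPR1, PPP1R15A and GDF15. These genes were chosen by name, with earlier results of these data known. They stand on 20 probe sets that list one of them alone, of 54613 probe sets on the array, and are 10 of the 19751 genes tested.

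RNA came from KYSE170, an oesophageal squamous carcinoma line, so every value describes a single line in culture. Both groups grew in one kind of medium with bovine serum and antibiotics. The untreated group (2 arrays) got no compound, and the labels name no vehicle. The other group (2 arrays) got ethyl-3,4-dihydroxybenzoate (EDHB) at 50 µg/ml for 12 h. EDHB is a catechol ester that inhibits oxygenases dependent on iron and 2-oxoglutarate, including the prolyl hydroxylases of the hypoxia pathway. The comparison asks how expression differed after this exposure. No label tells whether the replicates were separate cultures, so p-values measure only the spread between these arrays, which may be technical.

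Intensities are given as log2 values made by RMA, and median linear intensity was 23.3 to 23.5 on the 4 arrays. The rows of the replicate 2 columns were not those of the replicate 1 columns, and they were put back by matching the untreated arrays, with a posterior of at least 0.996 for each of the 20 probe sets. For 18 of them the matched value lay in the part of the replicate 2 column that ran in identifier order. The replicate 2 values of NUPR1 and of the brightest GDF15 probe set came from a separate block of probe sets that were at least 2-fold higher in that replicate, so their size there is tied to the block they were found in. The change within replicate 1 needs no such step and is given for each gene. Epithelial and squamous markers were present, with log2 levels of 12.78 to 12.91 for SFN, 11.85 to 12.07 for EPCAM and 8.70 to 8.95 for SOX2, whereas KRT14 lay at 3.19 to 4.30, below the median probe set (4.54). TP63, KRT6A and KRT17 were not analysed here. Of 14 measured markers of fibroblasts, leukocytes and endothelium, 10 lay below the median probe set, among them the leukocyte gene PTPRC (1.68 to 2.21). The others were COL1A1 (6.26 to 6.49), PECAM1 (4.83 to 5.21), THY1 (4.91 to 5.10) and PDGFRB (4.56 to 4.86). COL1A1 thus lay near the squamous marker KRT5 (6.17 to 6.77).

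Of the 10 regulators, 9 were higher on both EDHB arrays than on both untreated arrays, as were 23.2% of all genes. ATF5 was lower on both, as were 22.5% of all genes. In RNA from a whole culture, a change in fewer cells and a smaller change in all of them cannot be told apart. ATF4, the factor at the centre of the response, read 10.64 and 10.55 on the untreated arrays and 11.11 and 11.24 on the EDHB arrays. All values of one group lay outside those of the other, and the means were 10.60 ± 0.06 and 11.18 ± 0.09 (SD, n = 2 each). The change was 0.58 ± 0.09 (SE) log2 units, or 1.50-fold, with 0.48 within replicate 1 and 0.69 within replicate 2. The limma adjusted p over all genes was 0.115. It was 0.0227 with an intensity trend in the prior variance. In that setting each gene keeps its own spread, which is drawn towards a value typical of its intensity.

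ATF3, a factor of the same family that is induced by many stresses, read 7.04 and 6.79 untreated and 8.17 and 7.77 with EDHB. The groups did not overlap, and the change of 1.05 ± 0.17 (SE), or 2.08-fold, was somewhat larger within replicate 1 (1.13) than within replicate 2 (0.98). The adjusted p was 0.117, and 0.0390 with the intensity trend. A further ATF3 probe set changed by 0.72 within each replicate, and a dim one, at levels of 3.72 to 4.14, gave 0.20 and -0.14. With the mean over the 3 ATF3 probe sets the change was 0.60.

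DDIT3 encodes CHOP, a partner of C/EBP proteins that is linked to cell death under prolonged stress. It read 7.12 and 6.70 untreated and 7.43 and 7.56 with EDHB. The groups did not overlap, but the untreated arrays differed by more than the EDHB arrays did, and the change was 0.31 within replicate 1 and 0.87 within replicate 2. The estimate was 0.59 ± 0.16 (SE), with an adjusted p of 0.191 (0.106 with the trend). It was 0.37 without the second untreated array.

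The C/EBP members, which form dimers with ATF4, were higher by less. CEBPB read 10.92 and 10.72 untreated and 11.29 and 11.21 with EDHB, a change of 0.43 ± 0.10 (SE; adjusted p = 0.160, and 0.0530 with the trend). CEBPG read 8.38 and 8.37 untreated and 8.71 and 8.77 with EDHB, a change of 0.36 ± 0.08 (SE; adjusted p = 0.148, and 0.0557 with the trend). Both sets of arrays were apart in each gene. The second CEBPG probe set gave only 0.04 within replicate 1 and 0.29 within replicate 2.

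ATF5, whose message carries upstream reading frames like that of ATF4 and which is linked to mitochondrial stress, went the other way. It read 7.74 and 7.67 untreated and 7.46 and 7.39 with EDHB, with a change of -0.28 within each replicate. The estimate was -0.28 ± 0.08 (SE), and the adjusted p was 0.202 (0.122 with the trend). Its other 3 probe sets were also lower on both EDHB arrays, by smaller amounts of -0.06 to -0.21, and the mean over all 4 changed by -0.16. The 4 probe sets read messages of the same gene and are no independent replicates.

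Regulators that act back on the response come next. TRIB3, a pseudokinase induced by ATF4 and CHOP that in turn restrains ATF4, read 8.70 and 8.43 untreated and 9.32 and 9.34 with EDHB. The EDHB arrays nearly coincided, and the change was 0.76 ± 0.11 (SE), or 1.70-fold, made of 0.62 and 0.91 in the respective replicates (adjusted p = 0.115, and 0.0318 with the trend). The second TRIB3 probe set gave 0.68 and 0.71.

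PPP1R15A encodes GADD34, which brings a phosphatase to eIF2 and so ends the block on translation. It read 6.39 and 6.52 untreated and 6.97 and 6.63 with EDHB. The change was 0.58 within replicate 1 and only 0.10 within replicate 2, and the other probe set gave 0.77 and 0.17. The estimate of 0.34 ± 0.14 (SE) had an adjusted p of 0.308 (0.247 with the trend). It was 0.17 without the first EDHB array and 0.51 without the second.

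NUPR1, a small stress-induced chromatin protein, read 5.87 and 4.97 untreated and 6.78 and 7.00 with EDHB. The untreated arrays lay 0.90 apart, the widest gap among the 20 probe sets, while the EDHB arrays lay close together. The change was 1.47 ± 0.30 (SE), or 2.77-fold, with 0.91 within replicate 1 and 2.03 within replicate 2 (adjusted p = 0.146, and 0.0621 with the trend).

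GDF15, a secreted cytokine of the TGF-beta family that signals cell stress to the brainstem, had the largest change of the 10 when each gene was read by its brightest probe set. It read 6.46 and 5.72 untreated and 7.86 and 7.78 with EDHB, with means of 6.09 ± 0.52 and 7.82 ± 0.05 (SD, n = 2 each). The change was 1.73 ± 0.25 (SE), or 3.31-fold, made of 1.39 and 2.06 in the respective replicates. The adjusted p was 0.111 (0.0332 with the trend). This probe set carries the suffix x, which marks probes that can bind other transcripts. Its 2 dimmer probe sets, at levels of 2.97 to 3.84, did not run alike: one gave 0.51 and 0.86 and the other -0.05 in each replicate. With the mean over its 3 probe sets GDF15 changed by 0.79, less than NUPR1 with its single probe set (1.47).

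**Figure D1:**
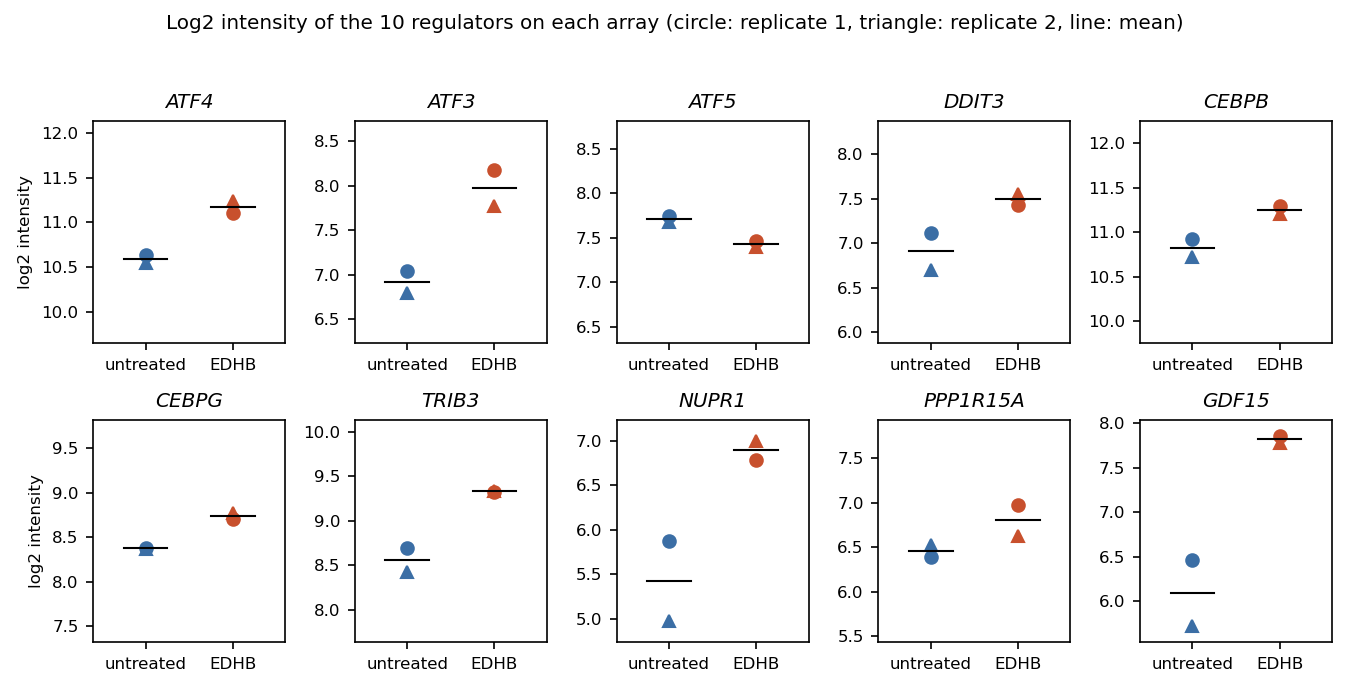
Log2 intensity of each of the 10 regulators (brightest probe set) on the 2 untreated and 2 EDHB arrays, with circles for replicate 1, triangles for replicate 2 and a line at the mean of each group. All panels span 2.5 log2 units around their own centre; ATF5 is lower with EDHB, and the untreated arrays of NUPR1 and GDF15 lie 0.90 and 0.74 apart.

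Against the whole table, the size of these changes stood out more than their tests. Because the genes were chosen with earlier results of these data known, the shares and ranks below are descriptions and no independent support. In limma with Benjamini-Hochberg adjustment, 0 of the 10 genes passed an adjusted p of 0.05, where 0.0101% of all genes did. At an unadjusted p under 0.05, 8 were higher (8.81% of all genes) and ATF5 was lower (7.98% of all genes). PPP1R15A was the gene left out. Both EDHB arrays lay above both untreated arrays in 9 of 10, against 23.2% of all genes, and below them in 1 of 10, against 22.5%. With the intensity trend 4 of the 10 passed and were higher, namely ATF4, ATF3, TRIB3 and GDF15, against 1.07% of all genes called higher, 0.830% called lower and 1.90% called in either direction. Without any 1 of the 4 arrays the trend fit called 0 genes in all, these 4 included. The same 4 passed without the trend once dim probe sets were removed, where 2.14% of 12401 genes were called higher. With the trend and centred arrays, or the trend and cyclic loess, CEBPB, CEBPG and NUPR1 passed as well, against 2.49% and 2.53% of all genes called higher.

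The table of tested genes lacks strong changes: 80 of the 193 replicate 2 values in the 2-fold blocks, and 15 of the 118 probe sets with a 2-fold change in replicate 1, were not restored. The ranks and the 2-fold share below are those of the restored genes alone. Ranked by log2 change from the highest among these 19751 genes, GDF15 stood at 5, NUPR1 at 7, ATF3 at 34 and TRIB3 at 108. DDIT3 and ATF4 followed at 230 and 234, and CEBPB, CEBPG and PPP1R15A at 529, 864 and 971. GDF15, NUPR1 and ATF3 were the members with a change of at least 2-fold higher, which 39 of the restored genes reached (0.197%). Within replicate 1 NUPR1 was below 2-fold, at 0.91. The median change of the 10 was 0.59, with 0.53 within replicate 1 and 0.78 within replicate 2, and that of all genes was within 0.01 of 0.

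**Figure D2:**
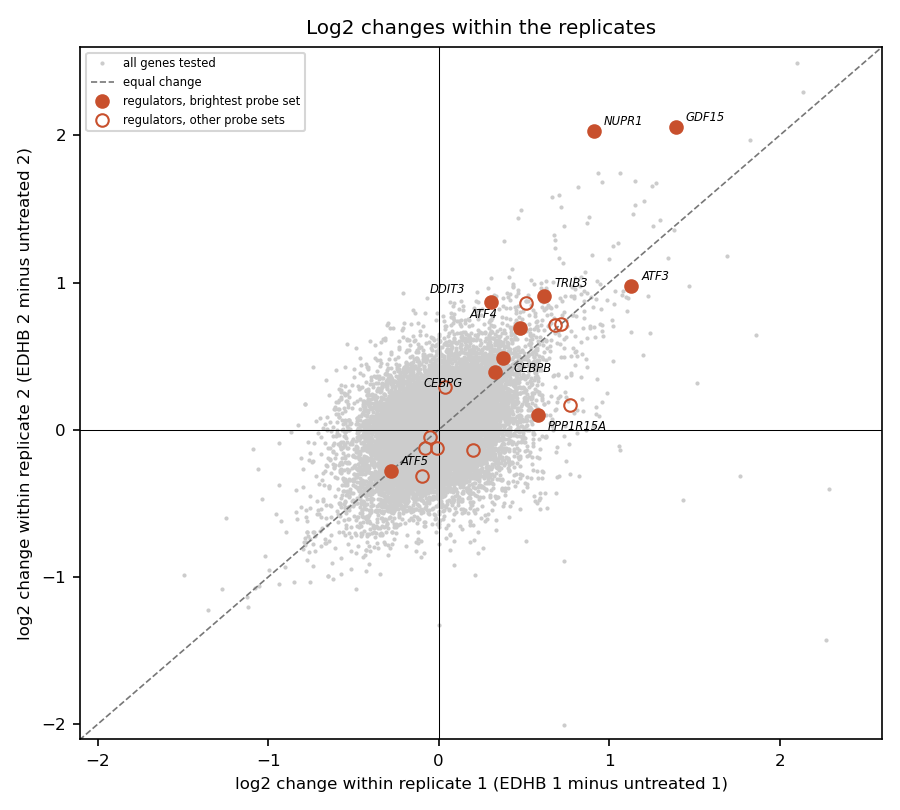
Log2 change within replicate 1 (horizontal) against that within replicate 2 (vertical) for the 20 probe sets of the regulators, filled for the brightest one of each gene, with all 19751 genes in grey and a dashed line of equal change; 1 gene falls outside the axes. GDF15 and NUPR1 lie above the line (2.06 and 2.03 within replicate 2), PPP1R15A lies below it (0.58 and 0.10), and ATF5 lies on it at -0.28.

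The genes whose 4 values ran most like those of ATF4, by Euclidean distance between profiles centred on their own means, were SH3BP5 (distance 0.0210), BCL11A (0.0283) and TMEM154 (0.0435). Their changes were 0.58, 0.58 and 0.59. With 4 arrays such a likeness is a description of the order and size of 4 numbers.

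ATF4 binds composite sites that join a C/EBP and an ATF site, with the core TGATGNAA, where N is any base. RefSeq promoter windows (GRCh38.p14, 250 bases before to 50 after a start) were held for 9 of the 10 regulators, NUPR1 being the exception, and were searched on both strands. These 9 genes had 18 windows, and a gene with more windows has more room for a match. The core stood in a window of CEBPG and of ATF3, so in 2 of 9 genes, against 3.62% of all 35116 windows and 4.46% of the 27305 genes with a window. The palindromic cAMP response element TGACGTCA stood in a window of PPP1R15A, so in 1 of 9 genes, against 1.85% of all windows and 2.25% of the genes with a window. These stretches are shown because they are the matches among the regulators, with the match in capitals. The CEBPG stretch lies at chr19:33374060-33374089 (plus strand, 42 bases before the start), that of ATF3 at chr1:212565205-212565234 (plus strand, 191 bases before the start) and that of PPP1R15A at chr19:48872352-48872381 (plus strand, 58 bases before the start).
CEBPG: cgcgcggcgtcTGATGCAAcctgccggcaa
ATF3: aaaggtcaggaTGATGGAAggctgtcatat
PPP1R15A: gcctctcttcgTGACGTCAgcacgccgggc

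In the windows of the known ATF4 target genes described below, 17 of 40 genes held the core, or 42.5%. A few of these matches are shown for comparison with those of the regulators, 5′ to 3′ on the gene's own strand. All those shown are of genes that were higher with EDHB, ASNS on its main probe set within replicate 1 alone. The core also stood in genes not shown that changed little or were lower, such as IARS1 (-0.06), FGF21 (-0.12), GOT1 (0.00) and NARS1 (0.05). Others not shown, such as AARS1 (0.37), were higher. In CHAC1, SLC1A4, HERPUD1, CARS1 and GARS1 the core lies on the opposite strand, so the capitals show its reverse complement. They lie at chr15:40953251-40953280 (CHAC1, plus strand), chr2:64989381-64989410 (SLC1A4, plus strand), chr16:56931955-56931984 (HERPUD1, plus strand), chr11:3057407-3057436 (CARS1, minus strand), chr7:30594834-30594863 (GARS1, plus strand) and chr7:97872458-97872487 (ASNS, minus strand).
CHAC1: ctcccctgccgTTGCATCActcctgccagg
SLC1A4: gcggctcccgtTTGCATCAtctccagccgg
HERPUD1: gacgcggcgggTTGCATCAgcccgtgccca
CARS1: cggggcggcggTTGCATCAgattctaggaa
GARS1: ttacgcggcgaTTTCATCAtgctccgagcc
ASNS: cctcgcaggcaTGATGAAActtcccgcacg
A match is a description of letters. Of the target genes with a window, the 16 measured ones with the core had a median change of 0.17 and the 20 without it 0.21. Those with the core include ASNS (-0.05) and JDP2 (0.31), each read from a dim probe set. Brighter probe sets of ASNS and JDP2, not restored, were higher by 1.04 and 1.42 within replicate 1. The order of the medians is therefore not settled. Outside these lists, 24.1% of the 536 genes with the core had both EDHB arrays above both untreated arrays, and 23.6% of the 14783 genes without it.

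Of 20 genes for the eIF2 kinases, eIF2, eIF2B and their regulators, 0 passed in limma with or without the trend, 2 were higher (EIF2AK3 and DNAJC3) and 4 lower (EIF2AK4, EIF2B3, EIF2B4 and EIF2B5) at an unadjusted p under 0.05, against 8.81% and 7.98% of all genes, and the median change was -0.02. The kinase of the endoplasmic reticulum, EIF2AK3 (PERK), read 7.40 and 7.52 untreated and 7.81 and 7.80 with EDHB, a change of 0.34 ± 0.08 (SE; adjusted p = 0.167), with its other probe set, at a level of 2.29, going the other way. The amino acid sensor EIF2AK4 (GCN2) read 6.80 and 6.69 untreated and 6.46 and 6.48 with EDHB, a change of -0.28 ± 0.08 (SE; adjusted p = 0.212), and its other probe set gave -0.36. EIF2AK1 (HRI, the haem-regulated kinase) and EIF2AK2 (PKR, the kinase activated by double-stranded RNA) had changes of 0.11 ± 0.08 and 0.13 ± 0.07 (SE), and each had another probe set of the opposite sign. DNAJC3, a chaperone that inhibits PERK, read 7.93 and 7.82 untreated and 8.37 and 8.25 with EDHB (0.44 ± 0.09 SE, adjusted p = 0.146).

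All 5 subunits of eIF2B, the exchange factor that phosphorylated eIF2 blocks, were lower on both EDHB arrays, as were 22.5% of all genes. EIF2B4 read 9.15 and 9.07 untreated and 8.80 and 8.67 with EDHB, a change of -0.37 ± 0.09 (SE; adjusted p = 0.163). The others changed by -0.26 (EIF2B5), -0.22 (EIF2B1), -0.21 (EIF2B3) and -0.09 (EIF2B2), and none passed. These genes were singled out after their values were seen. The eIF2 subunits EIF2S1, EIF2S2 and EIF2S3 changed by -0.06, 0.01 and -0.03.

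**Figure D3:**
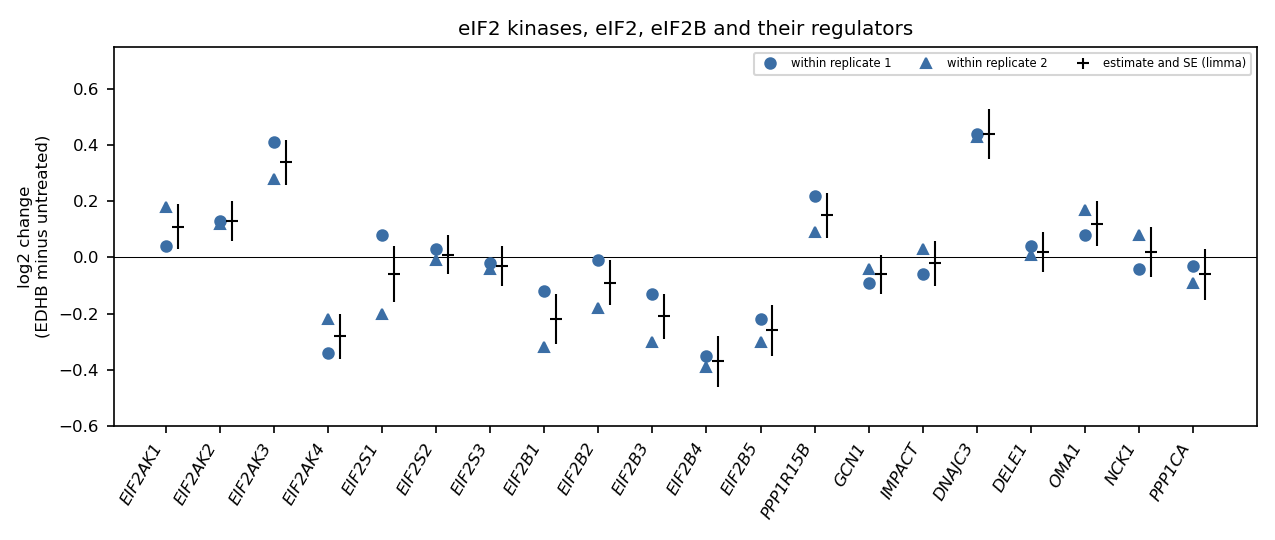
Log2 change (EDHB minus untreated) within replicate 1 (circles) and replicate 2 (triangles) and the limma estimate with its SE (black) for 20 genes of the eIF2 kinases, eIF2, eIF2B and their regulators. EIF2AK3 and DNAJC3 lie above 0 in both replicates (estimates 0.34 and 0.44), and EIF2AK4 and the 5 eIF2B subunits lie below it.

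Of 4 close relatives of the regulators 3 were measured, NUPR2 being the one not analysed here. PPP1R15B, the constitutive counterpart of PPP1R15A, read 8.50 and 8.58 untreated and 8.71 and 8.67 with EDHB (0.15 ± 0.08 SE). The relatives of TRIB3 changed by -0.03 ± 0.09 (TRIB1) and 0.08 ± 0.08 (TRIB2; SE). TRIB1 overlapped between the groups. Among 20 other factors of the ATF, CREB and C/EBP families, 0 passed in either fit, 5 were higher and 1 lower at an unadjusted p under 0.05 (8.81% and 7.98% of all genes), and the median was 0.01. CREB3L4, a membrane-bound member, had a change of 0.52 ± 0.16 and CEBPA one of 0.39 ± 0.11 (SE), while TEF changed by -0.77 within replicate 1 and -0.08 within replicate 2. The lower one was HLF, at levels of 2.66 to 3.25, with a change of -0.53 ± 0.08 (SE; adjusted p = 0.116); it was named after its values were seen.

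Among the known targets, the genes of stress and cell death had the highest median, 0.31 over 15 measured genes. With the trend 5 of them passed and were higher, against 1.07% of all genes, and 0 passed without it, where 8 were higher at an unadjusted p under 0.05 (8.81% of all genes). CHAC1, an enzyme that degrades glutathione, read 4.64 and 4.17 untreated, around the median probe set, and 5.71 and 5.91 with EDHB. It was 2.65-fold higher (1.40 ± 0.18 SE; adjusted p = 0.104, and 0.0304 with the trend). HERPUD1, of the degradation pathway of the endoplasmic reticulum, was 1.95-fold higher, by 0.86 and 1.07 within the replicates (adjusted p = 0.0901, and 0.0183 with the trend). Its other probe set, at a level of 4.15, gave 0.18, and the mean over both changed by 0.57. VEGFA, which the hypoxia pathway also induces, was higher by 1.32 (2.50-fold) on its brightest probe set and by 0.66, 0.71 and 0.68 on the others, and the mean over all 4 changed by 0.84. STC2, a secreted glycoprotein, and MAP1LC3B, of autophagosomes, were the other genes that passed with the trend, at 0.80 and 0.50. DDIT4 and VLDLR had no restored probe set and were higher by 0.89 and 2.08 within replicate 1, with no test. JDP2, a repressor that pairs with ATF factors, was higher by 1.42 there on a probe set that was not restored, and the one that entered the fit gave 0.31 at levels of 3.81 to 4.32.

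Of 12 measured enzymes of amino acid synthesis, 3 passed with the trend and were higher (1.07% of all genes), 5 were higher at an unadjusted p under 0.05 (8.81% of all genes), and the median was 0.21. CTH, which makes cysteine from cystathionine, read 6.68 and 6.54 untreated and 7.88 and 8.10 with EDHB (2.60-fold; adjusted p = 0.0763, and 0.0104 with the trend). PHGDH and PSAT1, which take the opening steps of serine synthesis, were higher by 0.74 ± 0.12 and 0.72 ± 0.09 (SE; adjusted p = 0.0378 and 0.0161 with the trend). CBS, the partner of CTH in transsulfuration, changed by 0.86 ± 0.21 (SE) and did not pass, with another probe set at -0.10. Probe sets of CTH and CBS that were not restored were higher by 0.72 and 0.77 within replicate 1, with no test. The proline enzymes ALDH18A1 and PYCR1 changed by -0.15 and -0.06. ASNS, the asparagine synthetase, was higher by 1.04 within replicate 1 on its main probe set, from 8.53 to 9.57, which was not restored in replicate 2. The probe set that entered the fit lay at only 1.54 to 1.76 and says little about the gene. Its change of -0.05 is part of the median of 0.21.

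All 8 amino acid transporters had changes above 0, as did 9766 of all 19751 genes, and their median was 0.17. Some changes were close to 0, with 0.04 for SLC6A9, at levels of 2.60 to 2.98, and 0.07 for SLC7A5. With the trend 2 passed (1.07% of all genes), and 3 were higher at an unadjusted p under 0.05 (8.81%). SLC1A4, a carrier of neutral amino acids such as serine, read 6.13 and 5.91 untreated and 7.40 and 7.59 with EDHB (2.78-fold; adjusted p = 0.0763, and 0.0104 with the trend). This probe set also carries the suffix x. Other restored SLC1A4 probe sets gave 1.72 and, at a level of 4.21, 0.15, and the mean over the restored ones changed by 1.11. Those not restored were higher by 1.39 and 0.58 within replicate 1. SLC38A2, which takes up glutamine and alanine, read 11.96 and 11.95 untreated and 12.38 and 12.37 with EDHB (adjusted p = 0.130, and 0.0141 with the trend). SLC7A11, the cystine carrier, had a change of 0.74 ± 0.17 (SE) and did not pass. Of 12 measured aminoacyl-tRNA synthetase genes, with the tRNA exporter XPOT counted among them, GARS1 alone passed with the trend (0.42 ± 0.08 SE; adjusted p = 0.0247), CARS1 and AARS1 had changes of 0.72 ± 0.16 and 0.37 ± 0.10 (SE), and the median was 0.15. At an unadjusted p under 0.05, 4 of these 12 were higher, against 8.81% of all genes, and the 1 call with the trend stands against 1.07%.

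The IRE1 and ATF6 arms, the other branches of the unfolded protein response, gave 0 calls among 16 measured genes in either fit, with 6 higher and 0 lower at an unadjusted p under 0.05 in limma (8.81% and 7.98% of all genes) and a median of 0.20. XBP1, the factor spliced by IRE1, read 7.45 and 7.22 untreated and 7.98 and 7.80 with EDHB (0.56 ± 0.12 SE; adjusted p = 0.151). The other XBP1 probe set, at a level of 3.38, gave 0.08, and the mean over both changed by 0.32. SEC24D of the secretory coat and the mannosidase-like EDEM1 had changes of 0.60 ± 0.21 and 0.34 ± 0.07 (SE). Dimmer SEC24D probe sets, at levels of 2.95 and 1.94, gave 0.11 and 0.37, and the mean over all of them changed by 0.36. The chaperone HSPA5 (BiP) changed by 0.28, and CRELD2 and SDF2L1 by -0.03 each. Whether the regulators differed from these arms was not tested.

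**Figure D4:**
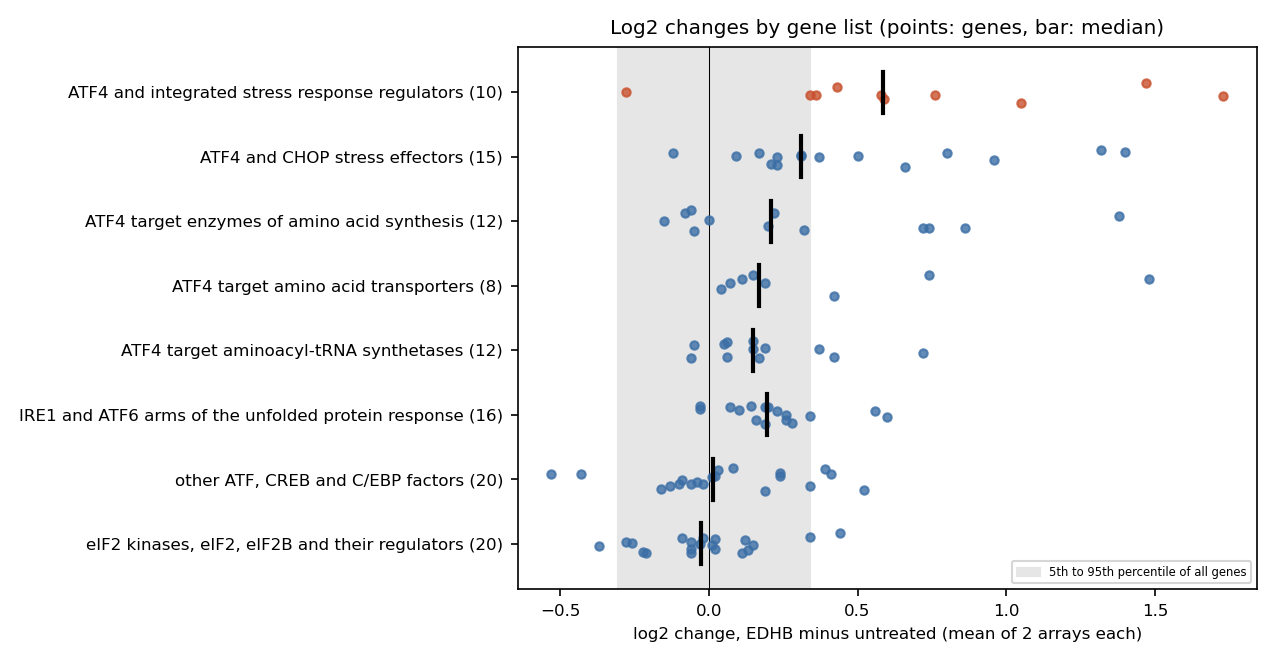
Log2 change (EDHB minus untreated) of each measured gene in the regulators (red) and in 7 further lists (blue), with a bar at each list's median and the 5th to 95th percentile of all genes (-0.31 to 0.34) in grey. Medians run from 0.59 for the regulators to 0.31 for the stress effectors and -0.02 for the eIF2 genes.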

How the data were processed

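Affymetrix arrays were hybridised with biotin-labelled cRNA, per the labels' protocols. The deposited intensity values are linear. RMA was used to make them, per the submitters' processing notes. It equalises the arrays' distributions, which removes any global difference. Intensities (1.55 to 13393) were turned into log2 values. The array number, 2 per group, limits the precision.

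As deposited, the EDHB arrays correlated at 0.418 across rows, and 1 cell of each replicate 2 column was empty. The replicate 2 column held a block of 148 probe sets at least 2-fold higher, 45 lower and then 54419 in identifier order, a layout inferred from the values. A forward-backward alignment of the untreated log2 levels (Student's t, scale 0.15, 3 degrees of freedom) kept 54459 of 54613 probe sets at a posterior of at least 0.95, after which the EDHB arrays correlated at 0.997.

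The platform annotation gave the gene names (41091 with 1 gene, 1801 with several, 11721 with none listed). Each gene was read by its brightest restored probe set. EDHB was compared with untreated arrays by limma 3.58.1 in R 4.3.3 (no block, Benjamini-Hochberg over 19751 genes, threshold 0.05). An intensity trend in the prior variance, other scalings, filters, posterior minimums and left-out arrays were alternatives. Both steps were tested on simulated data. There the alignment restored 129 of the 193 rows placed in the 2-fold blocks. Of 50 genes set 0.5 log2 units apart, limma recovered 2%, and of 50 set 1 unit apart 78%, with 9 wrong calls. The simulated errors were independent and normal, which is not known for these arrays, so these shares need not hold for the real fit. In the data 39 of the restored genes were at least 2-fold higher, and limma called 2 genes. Named genes were the 10 members, the 3 largest same-sign changes above the median probe set in each other list, the eIF2 kinases, close relatives and the 3 genes most like ATF4; others are named to account for counts. Members and lists were chosen with earlier results of these data known. Python 3.11.15 was used for the alignment.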

Additional observations from a re-analysis of the deposited data

How the results depend on the processing

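The direction of each of the 10 regulators held in the 20 alternatives that give a value per gene, but sizes moved: GDF15 ran from 0.79 to 2.10, NUPR1 from 1.02 to 1.92, ATF3 from 0.60 to 1.25, DDIT3 from 0.37 to 0.80, PPP1R15A from 0.17 to 0.51 and ATF5 from -0.32 to -0.16. Their median was 0.48 to 0.71 without 1 array and 0.45 with every probe set on its own, where 5 of the 20 probe sets were lower, the 4 of ATF5 and one of GDF15 (-0.05). The number of calls depended on the setting. Over all genes it was 2 (2 higher, 0 lower) in the main setting and 375 (211 higher, 164 lower) with the intensity trend, 426 with dim probe sets removed, 79 with log2(intensity + 16), 40 (30 higher, 10 lower) with arrays centred on their medians, 7 (5 higher, 2 lower) with cyclic loess, 38 with the mean over a gene's probe sets, and 0 with a posterior minimum of 0.5 or with every probe set on its own. Among the regulators 4 passed with the trend and the same 4 (ATF3, ATF4, GDF15, TRIB3) with dim probe sets removed, against 2.14% of genes called higher there. Chosen after seeing the data, the trend with centred arrays called 833 genes and with cyclic loess 850, of which 7 were regulators in each, the 4 and CEBPB, CEBPG and NUPR1 (2.49% and 2.53% of genes called higher). Without any 1 array 0 genes were called, with or without the trend; a lone array was then assumed to vary like the other group. With the replicate block, 0 genes were called without the trend and 0 with it. Over genes, the differences between replicates 1 and 2 correlated at 0.21 between the groups, and with 2 pairs this does not show that the numbers pair the arrays. EIF2AK1 turned to -0.09 with the mean over its probe sets, and TRIB1 to 0.04 there and ranged from -0.11 without EDHB replicate 1 to 0.04 without EDHB replicate 2. The cause of these shifts was not tested.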
